A study of Mus musculus with 35 samples.

Results

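The binding sites of Ikaros and Aiolos were compared in wild-type (WT) mouse pre-B cell progenitors that grow attached to stroma. The members were all peaks of the deposited WT Ikaros list and, beside them, of the WT Aiolos list, on chromosomes 1 to 19 and X. These were 42621 Ikaros peaks and 3483 Aiolos peaks, of 1213505 peaks in the 33 lists of the series. The assay was chromatin immunoprecipitation with sequencing (ChIP-seq), which counts DNA fragments pulled down with an antibody. Ikaros was precipitated with a pair of antibodies and Aiolos with a single other one. Further WT lists mapped histone marks, RNA polymerase II (RNAPII), the Mediator subunit MED1 and 6 other transcription factors. An Aiolos list of 2778 peaks came from cells of the same kind with the genotype IKDN CD2 Cre, called IKDN here. IKDN is known from work on this mouse as a conditional dominant-negative Ikaros allele, and CD2 Cre is a Cre transgene active in lymphoid progenitors. The WT label names no Cre. Coordinates are in the mm10 build (GRCm38), checked against RefSeq start sites. Cells of both genotypes were at passages 3 to 8. The labels do not say how many mice or cultures a library came from. Each target and genotype has 1 library, so no difference below has a replicate check, and intervals are exact 95% binomial (Clopper-Pearson) intervals for counting error only. The antibody, the depth of the library and the factor changed together between the 2 lists and cannot be told apart, nor can fewer bound cells and weaker binding per cell.

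Ikaros (gene Ikzf1) and Aiolos (Ikzf3) are zinc finger proteins of lymphoid cells. They bind DNA around the core letters GGGAA, and form dimers with themselves and with each other through a second set of zinc fingers at the end of the protein. Both are partners of the chromatin remodelling complex NuRD. In the B lineage Ikaros is needed from the earliest steps, while Aiolos is known to become more abundant once the pre-B cell receptor (pre-BCR) is expressed, and both act on genes of the pre-BCR and of the cell cycle.

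8 promoter windows show what Ikaros peaks with and without Aiolos look like in sequence. They run from 250 bases before to 50 bases after an annotated start, on the strand of the gene, and are RefSeq sequence of the GRCm38.p6 build. Capitals mark each GGGAA on either strand, so that TTCCC is the same match read from the other strand. The genes were chosen after their values were seen. Chmp5, Ddx20, Hjurp and Mcrs1 carry the highest-ranked Ikaros peaks with Aiolos whose centre lies in a window of the same gene. Rps19 and Tmem181a carry top-decile promoter peaks without Aiolos. Igll1 and Vpreb2 code for surrogate light chain proteins of the pre-BCR, and only the Igll1 promoter peak overlapped Aiolos.

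The 4 windows with both factors lie at chr4:40948303-40948602 on the plus strand (Chmp5, part of the ESCRT machinery that cuts membranes), chr3:105687522-105687821 on the minus strand (Ddx20, a helicase of the SMN complex), chr1:88277530-88277829 on the minus strand (Hjurp, the chaperone of centromeric histone CENP-A) and chr15:99251912-99252211 on the minus strand (Mcrs1, a nuclear scaffold protein).
Chmp5: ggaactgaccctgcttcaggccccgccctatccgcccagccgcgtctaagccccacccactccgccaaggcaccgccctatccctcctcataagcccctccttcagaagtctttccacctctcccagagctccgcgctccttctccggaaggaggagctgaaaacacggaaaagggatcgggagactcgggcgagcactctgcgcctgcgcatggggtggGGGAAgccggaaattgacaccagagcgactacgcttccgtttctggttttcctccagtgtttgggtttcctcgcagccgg
Ddx20: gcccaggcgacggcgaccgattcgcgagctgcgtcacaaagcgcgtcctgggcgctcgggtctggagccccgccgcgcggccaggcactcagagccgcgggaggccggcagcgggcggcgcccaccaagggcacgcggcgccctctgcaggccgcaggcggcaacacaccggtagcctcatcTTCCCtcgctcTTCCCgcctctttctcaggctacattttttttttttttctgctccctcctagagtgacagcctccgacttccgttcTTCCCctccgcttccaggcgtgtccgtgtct
Hjurp: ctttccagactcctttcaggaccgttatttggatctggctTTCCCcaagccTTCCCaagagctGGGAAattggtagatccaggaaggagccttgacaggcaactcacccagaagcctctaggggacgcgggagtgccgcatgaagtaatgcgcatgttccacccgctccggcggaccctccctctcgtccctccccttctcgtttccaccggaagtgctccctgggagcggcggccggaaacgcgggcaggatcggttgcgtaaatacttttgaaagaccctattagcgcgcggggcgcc
Mcrs1: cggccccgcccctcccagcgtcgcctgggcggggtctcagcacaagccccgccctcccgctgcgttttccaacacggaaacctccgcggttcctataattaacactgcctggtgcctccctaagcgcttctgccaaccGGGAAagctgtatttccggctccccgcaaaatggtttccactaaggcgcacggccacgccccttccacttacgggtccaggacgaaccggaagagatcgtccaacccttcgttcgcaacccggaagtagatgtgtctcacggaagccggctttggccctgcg

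The surrogate light chain genes lie on chromosome 16, Igll1 at chr16:16863936-16864235 on the minus strand and Vpreb2 at chr16:17980315-17980614 on the plus strand.
Igll1: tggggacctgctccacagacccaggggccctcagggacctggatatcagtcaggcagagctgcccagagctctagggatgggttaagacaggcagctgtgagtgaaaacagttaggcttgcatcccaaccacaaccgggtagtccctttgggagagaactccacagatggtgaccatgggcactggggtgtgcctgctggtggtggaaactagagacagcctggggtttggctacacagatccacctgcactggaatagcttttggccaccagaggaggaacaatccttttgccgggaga
Vpreb2: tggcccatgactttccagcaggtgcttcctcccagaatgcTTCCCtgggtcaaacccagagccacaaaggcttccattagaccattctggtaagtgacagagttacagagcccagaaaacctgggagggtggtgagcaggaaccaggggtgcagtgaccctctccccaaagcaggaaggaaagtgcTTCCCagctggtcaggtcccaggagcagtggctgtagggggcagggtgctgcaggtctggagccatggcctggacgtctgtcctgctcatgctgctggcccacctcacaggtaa

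The remaining pair, with Ikaros and no Aiolos peak, lie at chr7:24884342-24884641 on the plus strand (Rps19, a protein of the small ribosomal subunit) and chr17:6270220-6270519 on the plus strand (Tmem181a, a membrane protein).
Rps19: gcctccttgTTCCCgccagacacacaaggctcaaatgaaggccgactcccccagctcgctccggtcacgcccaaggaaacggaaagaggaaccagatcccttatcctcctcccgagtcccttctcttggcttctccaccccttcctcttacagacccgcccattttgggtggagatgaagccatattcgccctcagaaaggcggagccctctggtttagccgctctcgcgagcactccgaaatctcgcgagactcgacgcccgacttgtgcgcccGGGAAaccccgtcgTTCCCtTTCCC
Tmem181a: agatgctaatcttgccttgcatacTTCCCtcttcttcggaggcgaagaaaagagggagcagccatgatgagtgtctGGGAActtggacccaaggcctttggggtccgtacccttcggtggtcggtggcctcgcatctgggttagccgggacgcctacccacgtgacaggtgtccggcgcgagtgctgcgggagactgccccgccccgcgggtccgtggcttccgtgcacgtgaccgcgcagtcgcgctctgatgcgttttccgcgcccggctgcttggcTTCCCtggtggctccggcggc

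Counting bases from 1 at the start of a window, the Chmp5 peak covered bases 52 to 228 and held the single GGGAA of that window. The Mcrs1 peak, over bases 39 to 215, also held the only match there. In Hjurp the 3 matches all lay before the peak, which covered bases 91 to 267. The Ddx20 peak was centred on base 292 and reached beyond the window, with 1 of the 3 matches inside it. Igll1 held no GGGAA in the window or in the part of its peak there, bases 1 to 149, although its Ikaros score of 93.4 ranked 57 in the list. Vpreb2 had 2 matches, 1 of them in the peak, at a lower Ikaros score of 35.6 (rank 912) and with no Aiolos. The windows without Aiolos had 4 matches in Rps19, 3 of them in the peak, and 3 in Tmem181a, 1 of them in the peak. Peaks with and without Aiolos thus both occurred in windows with several matches.

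Ikaros peaks lay mostly away from gene starts. By the deposited annotation 39.1% were intergenic, 36.9% intronic and 18.5% in the window called promoter-TSS, where TSS is a transcription start site. Within 2.5 kb of a TSS lay 30.8% (13122 peaks; interval 30.3 to 31.2%). In the other WT factor lists this share was 43.3% for ETS1, 37.2% for IRF4, 30.0% for E2A, 20.8% for TEAD1, 17.5% for EBF1 and 16.2% for PAX5. By marks, 36.2% of Ikaros peaks overlapped both H3K27ac, a mark of active promoters and enhancers, and H3K4me3, a mark of promoters. A further 26.5% overlapped H3K27ac without H3K4me3, a pattern known from active enhancers. H3K4 methylation without H3K27ac was found at 16.7%. H3K27me3, the mark of Polycomb repression, without H3K27ac was found at 2.98%, and none of these marks at 17.7%. For scale, H3K27ac peaks covered 2.73% of the mapped span of these chromosomes and H3K27me3 peaks 4.75%.

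Aiolos was found at a small share of Ikaros sites, while a far larger share of Aiolos sites carried Ikaros. Of 42621 Ikaros peaks, 1843 overlapped an Aiolos peak by at least 1 bp, which is 4.32% (interval 4.13 to 4.52%). Of 3483 Aiolos peaks, 1844 overlapped an Ikaros peak, which is 52.9% (interval 51.3 to 54.6%). With an overlap of at least 50% of both peaks this was 40.7%. The lists differ in length, and this sets how large the first share can be. With equal numbers, taking the 3483 top-scored Ikaros peaks, 39.4% of them carried Aiolos and 39.5% of Aiolos peaks carried Ikaros. Where the peaks overlapped, their centres were a median of 29 bp apart (quartiles 13 and 55 bp), and 71.2% of the 1844 pairs lay within 50 bp. Another 163 Aiolos peaks had an Ikaros centre within 1000 bp and no overlap.

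**Figure D1:**
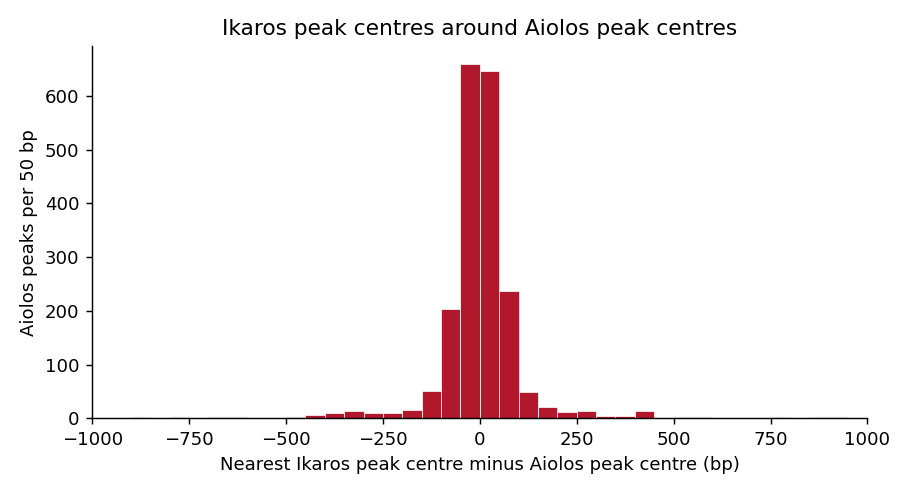
Histogram of WT Aiolos peaks by the distance in bp to the nearest Ikaros peak centre, for Aiolos peaks with one within 1000 bp, in bins of 50 bp. The 2 central bins hold 660 and 647 peaks, and the bins beyond 150 bp on either side hold 20 or fewer.

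Aiolos was found mainly at the strongest Ikaros peaks. Peak scores are the authors' own and rank peaks within 1 list only. Ikaros peaks with Aiolos had a median Ikaros score of 28.9, and those without it 6.39. The median with Aiolos was at percentile 96.4 of the Ikaros list, and 80.1% of these peaks were in its top decile. Read the other way, Aiolos was present at 34.4% of the top decile (1476 of 4287 peaks, score 18.3 or more), 5.61% of decile 9 and 1.45% of decile 8. In deciles 1 to 5 together it was present at 19 of 21354 peaks (0.0890%). Among the 1000 top-ranked Ikaros peaks the share was 69.6%, and among the top 100 it was 81.0% (interval 71.9 to 88.2%). The Aiolos score went less with Ikaros. The share of Aiolos peaks with Ikaros lay between 45.1 and 60.1% over all bins of the Aiolos score. Within the 1844 overlapping pairs the 2 scores had a Spearman correlation of 0.55, given as a description, since the pairs share the same chromatin and libraries.

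**Figure D2:**
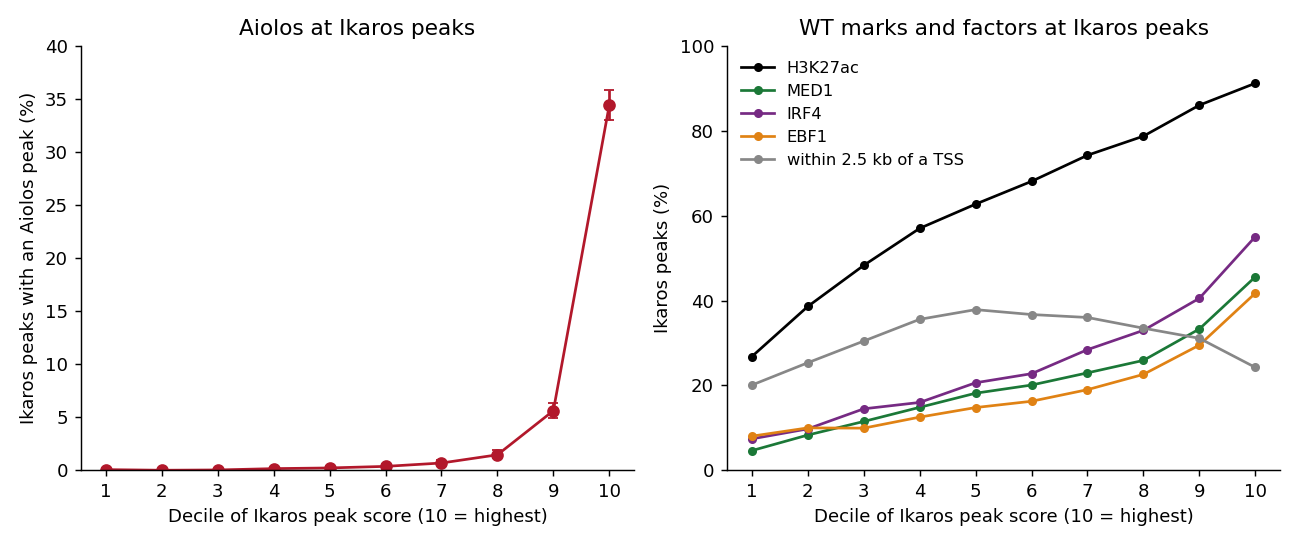
Left, percent of Ikaros peaks with an Aiolos peak in each decile of the Ikaros score, with exact 95% intervals as bars. Right, percent of the same peaks overlapping WT H3K27ac, MED1, IRF4 or EBF1 peaks, or lying within 2.5 kb of a TSS. Aiolos is at 34.4% in decile 10 and 5.61% in decile 9, while H3K27ac climbs over all deciles to 91.2%.

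Ikaros sites with Aiolos carried the marks of active chromatin more often than those without. H3K27ac was at 86.9% of sites with Aiolos (interval 85.2 to 88.4%) and at 61.6% of sites without (61.1 to 62.0%). MED1, which loads at strong enhancers, was at 48.6% with and 19.1% without, and RNAPII at 69.1% with and 45.1% without. H3K4me3 was at 53.0% with and 37.9% without, and H3K27me3 at 1.90% with and 5.30% without. Within 2.5 kb of a TSS lay 30.5% of sites with Aiolos and 30.8% of sites without, a difference that changed sign under other settings. These differences moved with the Ikaros score. In the top decile H3K27ac was at 92.1% of sites with Aiolos and 90.7% of sites without, and H3K4me2 at 96.1% with and 95.8% without.

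Within the top decile 29.3% of sites with Aiolos and 21.6% of sites without lay within 2.5 kb of a TSS. H3K4me3 was at 55.0% with and 44.2% without (intervals 52.4 to 57.6% and 42.3 to 46.0%). H3K4me1, the mark that is stronger at enhancers, went the other way, with 78.0% of sites with Aiolos and 86.1% of sites without. MED1 remained more frequent with Aiolos, at 53.2% with and 41.6% without. Counted from the other side, Aiolos was at 41.6% of top-decile promoter sites and 32.1% of top-decile distal sites. It was at 804 of 2011 top-decile sites with H3K27ac and H3K4me3, and at 556 of 1899 (29.3%) of those with H3K27ac and no H3K4me3. The choice of the top decile was made after the data were seen, and the part of the remaining difference in score inside it was not tested.

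**Figure D3:**
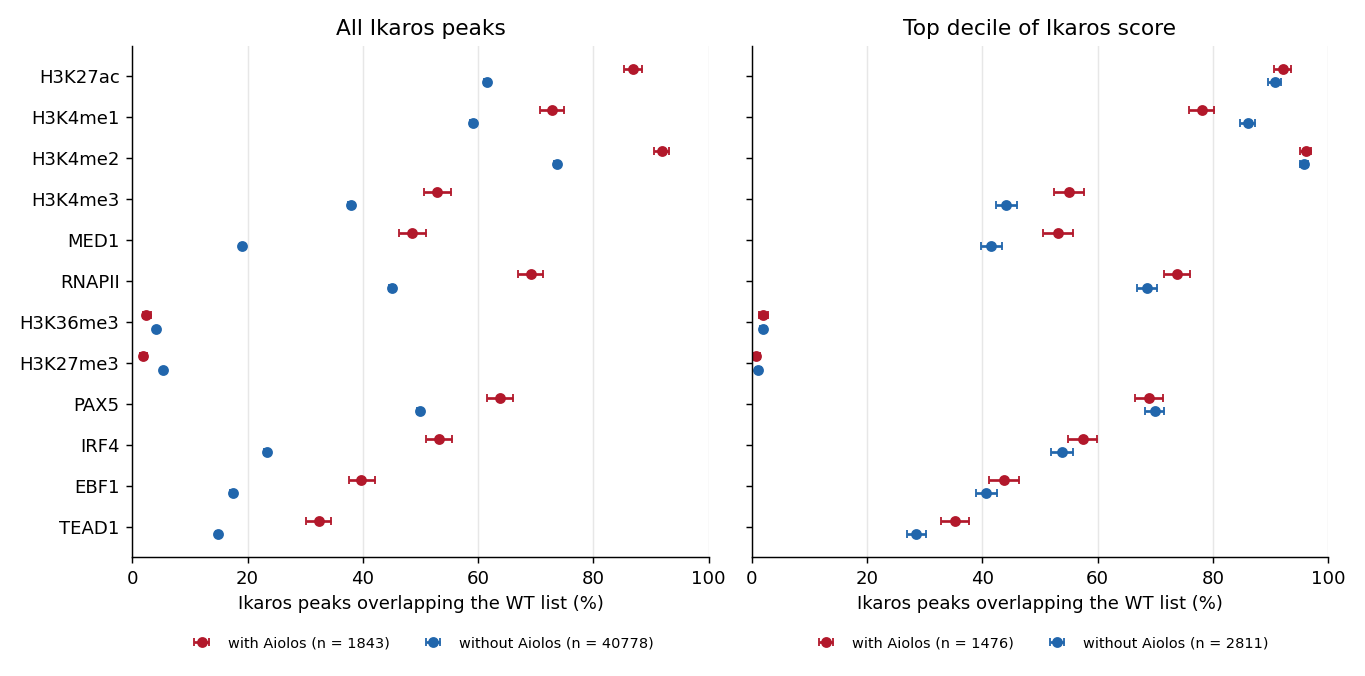
Percent of Ikaros peaks overlapping each WT list, for sites with and without Aiolos, with exact 95% intervals, over all Ikaros peaks (left) and the top decile of Ikaros score (right). The gap for H3K27ac is 86.9 against 61.6% on the left and 92.1 against 90.7% on the right, and H3K4me1 is lower with Aiolos on the right.

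Other transcription factors, of the B lineage and beyond it, met at the same sites. IRF4, which takes part in the pre-B to immature B transition, was at 53.2% of Ikaros sites with Aiolos and 23.3% of sites without. EBF1, a specification factor of the B lineage, was at 39.8% with and 17.4% without, and TEAD1, the DNA-binding partner of YAP, at 32.3% with and 14.9% without. PAX5, the commitment factor, was at 63.9% with and 49.8% without. The PAX5 label gives the antibody catalogue number that the IRF4 label gives, and which antibody was used was not tested. E2A was at 53.6% with and 28.1% without over the 11 chromosomes where its list is complete, and ETS1 at 55.9% with and 29.6% without outside chromosome 2, where its list is empty. In the top decile the gaps were smaller: IRF4 57.4% with and 53.8% without, EBF1 43.7% with and 40.7% without, PAX5 69.0% with and 69.9% without. The Aiolos share was 1.78% at Ikaros sites with none of EBF1, PAX5, IRF4 and TEAD1 and 21.9% at sites with all 4. In the top decile it was 33.5% with none and 41.4% with all 4.

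The letters GGGAA were more frequent where Aiolos was present, at the promoters whose sequence could be read. A window of 100 bp on each side of the peak centre lay inside a RefSeq promoter window for 103 Ikaros sites with Aiolos and 1740 without. GGGAA on either strand was in 81.6% of these with Aiolos (interval 72.7 to 88.5%) and in 60.7% without (58.4 to 63.1%). Stretches of equal length held it in 46.7% of acetylated promoters with no Ikaros peak and in 48.7% of all 32585 promoter windows. Inside the top decile of Ikaros score it was in 83.7% of 86 sites with Aiolos and 68.4% of 79 sites without, with intervals of 74.2 to 90.8% and 56.9 to 78.4% that overlap. Within 50 bp of the centre it was in 65.7% of 175 sites with Aiolos and 39.0% of 3195 sites without, and in 28.5% of all windows. In the top decile, within 50 bp, it was in 67.8% of 146 sites with Aiolos (interval 59.6 to 75.3%). Without Aiolos it was there in 49.3% of 144 sites (40.9 to 57.8%). The longer TGGGAA, which contains GGGAA, was within 100 bp at 35.9% of sites with Aiolos and 20.7% without. CCGGAAG, a motif of ETS factors that does not contain GGGAA, was at 24.3% with and 21.3% without, and at 5.31% of all promoter windows. A match describes the letters and is not a bound site.

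The highest-scored Ikaros sites also held Aiolos and included loci unlike the rest. Of the 100 top-ranked Aiolos peaks, 57 overlapped an Ikaros peak. All of the 10 top-scored Ikaros peaks overlapped Aiolos. 5 of them lay on chromosome 8 between 19784477 and 20550141, near the gene models Gm21119, 6820431F20Rik and 2610005L07Rik, with Ikaros scores between 216.7 and 293.4 and Aiolos scores between 34.9 and 49.5. Those 5 overlapped H3K27ac, H3K4me3, RNAPII and MED1. The gene names repeat along that stretch, and whether reads from near-identical copies were split or counted at several places was not tested. The second peak, at chr4:89285127-89285303 in intron 1 of 2 of Cdkn2a, which encodes inhibitors of the cell cycle, scored 272.9 for Ikaros and 84.4 for Aiolos. It overlapped H3K27me3 and no H3K27ac, and the annotation places it in a low-complexity A-rich stretch. 2 peaks on chromosome 16 scored 226.2 and 208.4 with none of the marks. Their nearest gene was Gm9961, at -214011 and -214654 bp from its TSS. The annotation places them in intron 11 of 13 of a transcript whose gene was not looked up. Of 14 other factor lists (6 factors in both genotypes, with LHX2 and LMO2 in IKDN cells), 1 had a peak there. Mir6906 (score 209.5) and Ly6e (201.2), a lymphocyte surface protein, completed the 10 at distal sites with H3K27ac and MED1.

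Of the 10 top-scored Aiolos peaks at Ikaros sites, 5 had none of the marks or H3K27me3 only. These were the Cdkn2a site, both Gm9961 sites, a peak in the exon of Cdr1 on chromosome X (score 42.2) and an intergenic peak at -67924 bp from the TSS of Cntn1 (40.2), which codes for a neural adhesion molecule. The other 5 were the chromosome 8 sites. Of all 1843 shared Ikaros sites, 102 had none of the marks. 3 shared sites with H3K27ac, chosen for that mark, were at Lyl1, Vgll4 and Pik3ap1. Lyl1, a bHLH factor of blood progenitors, had a peak of score 198.7 (rank 11) at -1436 bp from its TSS. A minus sign means before the start. That peak had an Aiolos score of 27.9 and peaks in 12 of 14 other factor lists, of which WT E2A is incomplete on its chromosome, 8. Vgll4, which competes with YAP for TEAD factors, had a shared peak of score 145.6 (rank 17) in intron 2 of 4, with an Aiolos score of 23.3. Pik3ap1, the adaptor BCAP that links the B cell receptor to PI3 kinase, had one of score 118.4 (rank 27) at -389 bp, with an Aiolos score of 17.3. Pik3ap1 was named after its values were seen.

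Most B lineage genes were nearest to an Ikaros peak, and genes of pre-BCR signalling were often nearest to one that also held Aiolos. Of 20272 protein-coding genes in the files, 63.8% were nearest to at least 1 Ikaros peak and 6.74% to one with Aiolos, while 45.3% had an Ikaros peak within 2.5 kb of the TSS and 12.0% a top-decile one. Of the 10515 genes with H3K27ac over a TSS, 87.3% were nearest to an Ikaros peak and 10.4% to one with Aiolos, and 18.2% to a top-decile one. Of 25 pre-BCR signalling genes, 25 had an Ikaros peak, 24 had one within 2.5 kb of the TSS and 15 had a shared one. Syk, the kinase that starts the signal, had 4 Ikaros peaks, 2 of them shared. The stronger, in intron 1 of 13 at chr13:52585190-52585366, had an Ikaros score of 65.6 and an Aiolos score of 7.98. Plcg2, the phospholipase downstream of Syk, had 11 Ikaros peaks with 2 shared, and Prkcb, a protein kinase C it activates, 14 with 2 shared. Fyn, with 13 Ikaros peaks (0 in the top decile), and the linker gene Blnk, with 10 (2 in the top decile), had none with Aiolos.

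The lists are also given per peak, since genes hold unequal numbers of peaks. Over all protein-coding genes 4.37% of Ikaros peaks had Aiolos and the median gene had 1 Ikaros peak. For pre-BCR signalling the share was 11.4% of 166 peaks, with a median of 5 peaks a gene. It was 12.1% for the IL-7 receptor pathway and cell cycle, 9.26% for V(D)J recombination and surrogate light chain, 7.97% for lymphoid transcription factors and 6.60% for B lineage identity. It was 6.16% for adhesion, 5.56% for Hippo, 3.95% for progenitor factors and 2.94% for NuRD, and 3 of 18 peaks in the Ikaros family. Counting top-decile Ikaros peaks only, 18 of 40 at pre-BCR genes had Aiolos (45.0%, interval 29.3 to 61.5%), and 35.4% of 3694 at all genes. The list interval includes the value of all genes, and so did those of each other list with top-decile peaks. Some genes stand in more than 1 list, and the lists were chosen with results of these data known.

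Genes of V(D)J recombination and the surrogate light chain had few shared peaks each. Igll1 had its shared peak at -190 bp from the TSS (Ikaros score 93.4, Aiolos score 10.6), with H3K27ac, H3K4me3, MED1, E2A, EBF1 and PAX5. Dntt, the polymerase that adds bases at V(D)J joints, had 6 Ikaros peaks, 1 of them shared, and Hmgb1, a cofactor of the recombinase, 8 with 1 shared. Hmgb2 and the joining factor Xrcc4 had 6 Ikaros peaks each, none in the top decile of Ikaros score, and no Aiolos. Of 16 genes of V(D)J recombination and surrogate light chain, 14 had an Ikaros peak, 5 a shared one and 3 a shared one within 2.5 kb of the TSS. Of all protein-coding genes 63.8% had an Ikaros peak, 6.74% a shared one and 2.53% a shared one within 2.5 kb, and of genes with H3K27ac over a TSS 87.3% had an Ikaros peak. Of 27 B lineage identity genes, 27 had an Ikaros peak and 10 a shared one. Among them Bcl11a, a zinc finger factor needed for B cell development, had 17 Ikaros peaks with 4 shared, the strongest 177902 bp from the TSS. Lef1, a Wnt-responsive factor, had 14 with 2 shared and Foxo1, which drives Rag genes, 30 with 1 shared. Bank1, a B cell scaffold, had 16 Ikaros peaks and none with Aiolos.

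In the IL-7 receptor pathway and cell cycle, 25 of 26 genes had an Ikaros peak and 11 a shared one. Of genes with H3K27ac over a TSS, 87.3% had an Ikaros peak and 10.4% a shared one. Ccnd3, the cyclin that pre-B cells need to divide, had 11 Ikaros peaks in all with 3 shared. Those 3 lay in intron 1 of 6, at 3095, 16685 and 37180 bp from the TSS, with Ikaros scores of 23.6, 31.1 and 47.5. Bcl2, the survival gene, had 18 with 3 shared, and Il7r, the receptor chain itself, 11 with 2 shared. The stronger Il7r site, at chr15:9491857-9492033, scored 68.1 for Ikaros and 6.31 for Aiolos, 37931 bp from the TSS. Jak1, with 7 Ikaros peaks, and the survival gene Mcl1, with 6, had no shared peak. The share of Ikaros peaks with Aiolos was 12.1% over the list and 4.37% over all protein-coding genes. In the top decile it was 17 of 33 (51.5%, interval 33.5 to 69.2%). That interval includes the 35.4% of 3694 top-decile peaks at all genes.

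Among 30 lymphoid transcription factors all had an Ikaros peak, 25 a top-decile one and 17 a shared one. A top-decile peak was at 12.0% of all genes. For genes with H3K27ac over a TSS the shares were 87.3% with an Ikaros peak, 18.2% with a top-decile one and 10.4% with a shared one. Runx1 had 26 Ikaros peaks with 3 shared, and Erg, an ETS factor of progenitors, 11 with 3 shared, of which the strongest scored 63.6 in intron 2 of 10. Irf4, with 13, and Zeb2, with 12, had none with Aiolos. In the Ikaros family itself, Ikzf1 had 12 Ikaros peaks with 3 shared. The strongest, at chr11:11658935-11659111, lay at -27190 bp from the TSS (Ikaros score 70.6, Aiolos score 10.3) with E2A, PAX5 and IRF4. The second, at chr11:11690077-11690253 in intron 1 of 7, scored 40.6 for Ikaros and 5.65 for Aiolos, and the third, at -29695 bp, scored 16.7 for Ikaros and 3.32 for Aiolos. The Ikzf1 promoter peak at -63 bp (score 18.9) had no Aiolos. Ikzf3, the Aiolos gene, had 2 Ikaros peaks and no Aiolos peak. The stronger, at chr11:98515642-98515818 in intron 3 of 7, scored 24.2 and was in the top decile, and the other, at -35 bp, scored 11.9. Ikzf4 had 4 Ikaros peaks without Aiolos, and Ikzf2 and Ikzf5 had no Ikaros peak.

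Counts for the next 4 lists stand beside the following shares. Of all protein-coding genes, 63.8% had an Ikaros peak, 6.74% a shared one and 12.0% a top-decile one. For genes with H3K27ac over a TSS these shares were 87.3, 10.4 and 18.2%. H3K27ac over a TSS was at 12 of 13 NuRD, 25 of 30 adhesion, 18 of 25 Hippo and 10 of 25 progenitor and extra-lineage genes. Of the NuRD genes, all 13 had an Ikaros peak, none in the top decile, and 1, Chd4, the remodelling ATPase, a shared one (Ikaros score 12.2, Aiolos score 3.99). Gatad2a had 10 Ikaros peaks, the strongest of score 11.1, with no Aiolos. Of the adhesion genes, whose products tie integrins to actin, 24 of 30 had an Ikaros peak and 7 a shared one. Nedd9, a docking protein of focal adhesions, had 24 with 3 shared, Itga4, an integrin of blood cells, 14 with 1, and Itgb1, its partner chain, 12 with 1, which lay at -10 bp from the TSS. Tns3, a tensin, had 21 Ikaros peaks, 6 in the top decile, and none with Aiolos. In the Hippo list 20 of 25 had an Ikaros peak and 5 a shared one, among them Vgll4, Tead1 (16 Ikaros peaks with 1 shared) and the kinase gene Nuak2 (5 with 1). Of 25 progenitor and extra-lineage factors, 15 had an Ikaros peak (60%), close to the share of all genes. A shared one was nearest to 3 of them, at -1436 bp from the TSS of Lyl1, 60684 bp from that of Tead1 and -548691 bp from that of Klf4. Lmo2, a factor of early progenitors, had 13 Ikaros peaks and none with Aiolos.

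**Figure D4:**
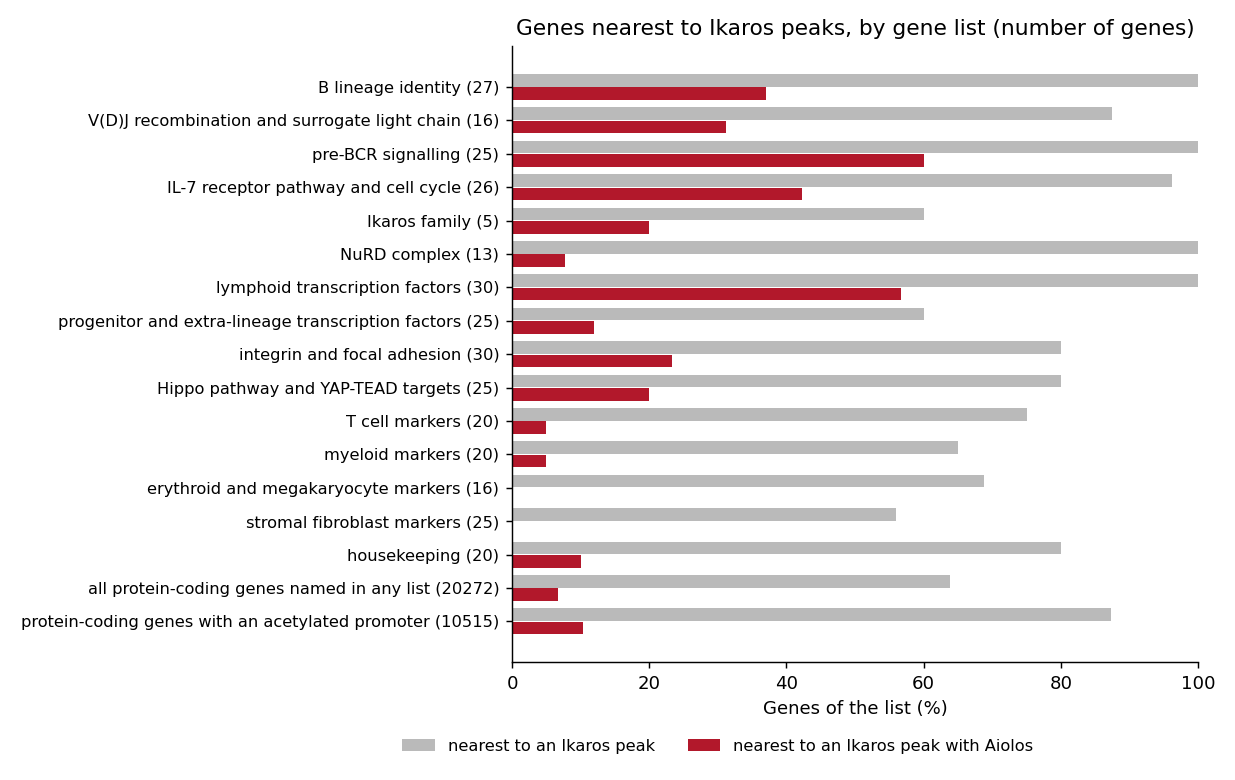
Percent of the genes of each list that are nearest to an Ikaros peak (grey) and to an Ikaros peak with Aiolos (red), with the number of genes in brackets and all protein-coding genes and genes with H3K27ac over a TSS at the bottom. Pre-BCR signalling has 15 of 25 genes at a shared peak, and all genes 6.74%.

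The markers fixed for the cell type were checked by H3K27ac over the TSS. It was present at 23 of 27 B lineage genes, 25 of 25 pre-BCR genes and 20 of 20 housekeeping genes. It was present at 6 of 20 T cell, 3 of 20 myeloid, 4 of 16 erythroid and 8 of 25 stromal fibroblast markers. The B lineage genes without it were Ms4a1, Ly6d, Bach2 and Ciita. The T cell markers with it were Cd5, Cd28, Lck, Lat, Zap70 and Tcf7, and those without it included all Cd3 genes. The myeloid markers with it were Csf2ra, Lyz2 and Cd14, and those without it included Csf1r. The erythroid and megakaryocyte markers with it were Hbb-bt, Tfrc, Gfi1b and Nfe2, and those without it included Gata1. The 8 stromal markers with it were Col1a1, Col5a1, Col6a1, Acta2, Pdgfrb, Vim, Lox and Runx2, and those without it included Col1a2, Col3a1, Pdgfra and Dcn. The part of stromal cells in these libraries was not tested.

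The 1639 Aiolos peaks that overlapped no Ikaros peak lay in a different setting from the 1844 that did. Aiolos peaks with Ikaros had none of H3K27ac, H3K4 methylation and H3K27me3 in 5.59% of cases, and Aiolos peaks without it in 77.4%. H3K27ac was at 86.6% of those with Ikaros and 13.6% of those without, and 30.4% with and 6.65% without lay within 2.5 kb of a TSS. The annotation placed 14.6% of Aiolos peaks with Ikaros in a repeat and 54.0% of those without, chiefly LINE elements (2.33% with and 21.2% without) and LTR elements (5.21% with and 17.4% without). Among L1 elements there were 89 of these peaks in L1Md_F2, 36 in L1_Mus1 and 33 in L1_Mus3. Chromosomes 14 and X held 5.15% of Aiolos peaks with Ikaros and 33.9% of those without. On chromosome 14, 254 Aiolos peaks had no Ikaros, of which 195 lay between 2 and 12 Mb, and on X 301, of which 71.1% were in LINE or LTR elements. Outside these 2 chromosomes 61.7% of Aiolos peaks overlapped Ikaros. No other factor had a peak at 4.77% of Aiolos peaks with Ikaros and 71.4% of those without, over 14 lists of both genotypes. Gaps in these lists counted as no peak. WT E2A is incomplete on chromosomes 2 to 9 and X, IKDN PAX5 on 9 and X, and WT ETS1 on 2. Chromosome X held 301 of the Aiolos peaks without Ikaros and 16 of those with it, so the gaps weigh more on the peaks without.

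**Figure D5:**
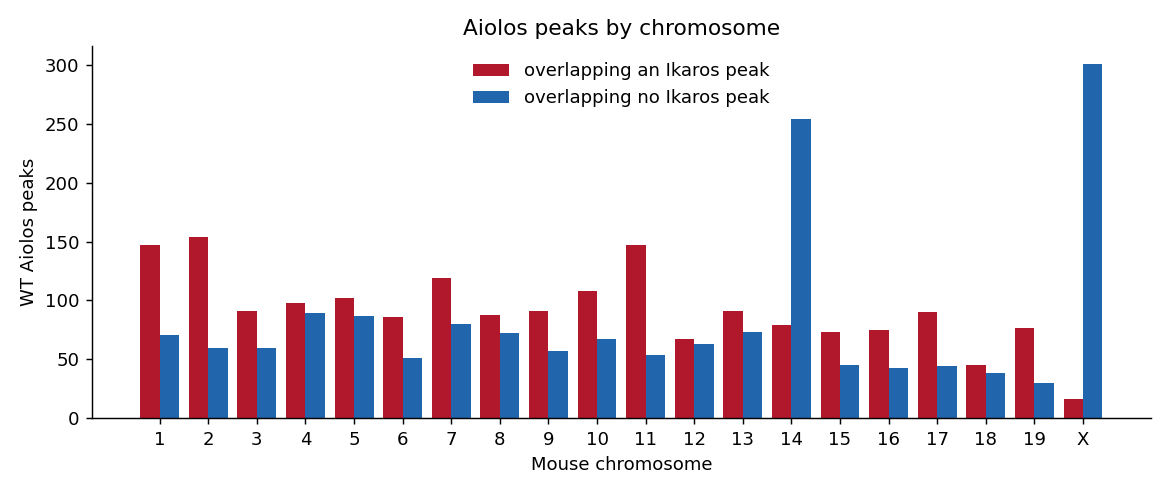
Number of WT Aiolos peaks per mouse chromosome that overlap an Ikaros peak (red) and that overlap none (blue). Chromosome 14 has 79 with and 254 without, chromosome X 16 with and 301 without, and every other chromosome has at most 89 without.

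Single loci stood out in that group. The genes with most Aiolos peaks were Gm3264 (31), Gm3383 (26) and LOC100861615 (21), gene models on chromosome 14 with no Ikaros peak, and Gm10096 (20) and Gm4836 (18) on X, with 3 and 1 Ikaros peaks of scores up to 4.72. The top-scored Aiolos peak of the whole list, of score 114, lay in a simple repeat at -520675 bp from the TSS of Lphn3 and overlapped no Ikaros peak. The next without Ikaros, of score 75.1, was at chr16:11687005-11687119, between the 2 Gm9961 sites where Ikaros peaked. 3 more lay within 22818 bp of B020014A21Rik on chromosome 10, with none of the marks and no peak of the 14 other factor lists. For Ikaros, the genes with most peaks were A430107P09Rik (60, 4 with Aiolos), Rpia (58, 1), Foxp1, a forkhead factor of B cells (42, 1), Lrrn3 (41, 1) and Olfr1507 (37, 2). A nearest gene need not be a target, and 9 of the 60 at A430107P09Rik lay within 50 kb. So did 10 of the 58 at Rpia, 23 of the 42 at Foxp1, 4 of the 41 at Lrrn3 and 2 of the 37 at Olfr1507.

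Aiolos was also mapped in IKDN cells, and a smaller share of its peaks there lay at WT Ikaros sites. Of 2778 IKDN Aiolos peaks, 984 overlapped a WT Ikaros peak (35.4%, interval 33.6 to 37.2%), against 52.9% of WT Aiolos peaks. The lists of the 2 genotypes shared 464 peaks, which is 16.7% of the IKDN and 13.3% of the WT list. An IKDN Aiolos peak was at 18.2% of Ikaros sites with WT Aiolos and at 1.58% of those without. Igll1, Syk and Lyl1 were among the shared sites that an IKDN Aiolos peak also overlapped, and the Ikzf1 sites were not. Scores of the 2 lists were not compared, and with 1 library a genotype the difference in overlap has no replicate check.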

How the data were processed

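ChIP-seq peak lists were analysed, 33 in number, from 35 libraries with 1 library per target and genotype. The authors deposited a peak score per peak, with a position, a nearest gene, an annotation and a distance to the transcription start site, per the file headers. HOMER, BWA, STAR and bcl2fastq 1.8.3 are the tools listed, per the submitters' processing notes, which give builds mm10 and mm9. How the input library was used is not given in the sources used here. Peaks off chromosomes 1 to 19 and X were left out (34 of 42655 Ikaros, 31 of 3514 WT Aiolos and 24 of 2802 IKDN Aiolos peaks). Score steps of 0.278 for Ikaros and 0.332 for WT Aiolos would correspond to 36.0 M tags for Ikaros and 30.1 M for Aiolos if scores are scaled to 10 M tags, which is an inference. Library depth is otherwise unknown.

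Peaks overlapping by at least 1 bp were called shared, and the code was tested on simulated data. Start sites were taken as those implied by the deposited distances (tolerance 100 bp), for 30867 of 33018 transcripts. No genome was used here, so GGGAA was searched in RefSeq promoter windows only, unlike the planned search of all peaks. The build was checked with Ikaros promoter peaks: the start site implied by the file lay within 1000 bp of a RefSeq start of the same gene for 97.8% of 9831. Shares carry exact 95% intervals. Python 3.11.15, numpy 2.4.6, pandas 2.3.3, scipy 1.17.1 and matplotlib 3.10.9 were used. The members and the 15 gene lists were chosen with earlier results of these data known. Named genes were those nearest to the 10 top-scored Ikaros peaks, the 10 top-scored Aiolos peaks with Ikaros and the 5 without, the 5 with most peaks of each factor, up to 3 genes per list with most Aiolos peaks at Ikaros sites and up to 2 with most Ikaros peaks and no Aiolos, and the Ikaros family. Genes outside the rule are said to be so or stand in the observations.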

Additional observations from a re-analysis of the deposited data

How the results depend on the processing

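Of 44 planned values under other settings 22 moved, and of 10 values added after seeing the data 7 moved. A share counted as moved outside the 95% interval of the reported one, a gene count beyond 1.5 times, and the median score percentile outside the quartiles of the sites. The share of Ikaros peaks with Aiolos was 3.32% with an overlap of 50% of both peaks, 5.15% with centres within 1000 bp, 4.56% in the top-scored 50% of both lists, 39.4% with equal peak numbers, 4.53% without repeats and 34.4% in the top-scored 10% of Ikaros peaks. The share of Aiolos peaks with Ikaros was 40.7, 57.6 and 55.9% in the first 3 of these settings, 39.5% with equal numbers, 57.7% on autosomes, 66.5% without repeats and 61.7% without chromosomes 14 and X. Ikaros peaks at promoters were 25.4% within 1 kb, 32.3% in the top-scored 50%, 36.9% without repeats and 24.2% in the top-scored 10%. The promoter share was 24.7% with Aiolos within 1 kb, and without Aiolos 25.4% within 1 kb, 32.4% in the top-scored 50% and 21.6% in the top-scored 10%. The promoter difference, with minus without Aiolos, changed sign: it was -0.31 percentage points as reported, 1.32 with centres within 1000 bp, 7.19 with equal numbers and 7.67 in the top-scored 10%. H3K27ac without Aiolos was 79.4% in the top-scored 50%, and in the top-scored 10% it was 92.1% with and 90.7% without. GGGAA within 50 bp was at 65.7% with and 39.0% without, and without Aiolos at 66.7% in the top-scored 50% and 68.4% in the top-scored 10%. Genes nearest to an Ikaros peak numbered 8324 in the top-scored 50%, 9185 with peaks within 2.5 kb of the TSS, 12330 within 50 kb and 12932 as reported. The cause was not tested. No paired analysis was possible because each target and genotype has 1 library.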

Other observations

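Lists of other lineages and of common genes are given as values. Beside them, 63.8% of all protein-coding genes had an Ikaros peak and 6.74% a shared one. For genes with H3K27ac over a TSS, as all 20 housekeeping genes had, these shares were 87.3 and 10.4%. Of 20 T cell markers 15 were nearest to an Ikaros peak and 1 to a shared one, Zap70, a kinase of the T cell receptor, with 9 Ikaros peaks of which 2 had Aiolos. Those 2 lay 18759 and 22930 bp from the Zap70 TSS, inside a transcript whose gene was not looked up. Of 20 myeloid markers 13 had an Ikaros peak and 1 a shared one, Ly86, a partner of the RP105 receptor of B cells and myeloid cells, with 17 Ikaros peaks of which 3 had Aiolos. Those 3 lay 95891, 137550 and 164305 bp from the Ly86 TSS. Erythroid and megakaryocyte markers had 31 Ikaros peaks and stromal fibroblast markers 27, with 0 shared in each. Taking 3 counts as the limit that a count of 0 allows, and not an exact interval, this allows a share of up to 9.68% for erythroid and megakaryocyte and 11.1% for stromal markers. Of 20 housekeeping genes 16 had an Ikaros peak and 2 a shared one, Ywhaz and Polr2a, the large subunit of RNAPII, whose only Ikaros peak scored 43.9.

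Chosen after their values were seen, the genes with most shared peaks included Zfp36l1, an RNA decay factor (5 of 34 Ikaros peaks), and Med13l, of the Mediator kinase module (5 of 26). Cxcr4, the chemokine receptor that holds progenitors in bone marrow, had 4 of 27. The top-scored Ikaros peaks without Aiolos lay nearest to Gtpbp4 (chr13:9011713-9011889, score 189.5, rank 12), with none of the marks, and Cr2, a complement receptor of B cells (chr1:195241520-195241696, score 157.5, rank 14), with H3K27ac and MED1.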
